A study of Homo sapiens and Mus musculus with 14 samples.

Results

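Chromosomes 17 and 22 are among the most gene-dense human chromosomes, and all accessible-DNA peaks on them were taken, by chromosome name alone, from 3 peak lists of the breast adenocarcinoma line MDA-MB-436. They held 2222 of the 64806 peaks of control cells (1599 on chromosome 17 and 623 on chromosome 22), 1191 of the 39537 peaks of SMARCAL1 knockout clone 1 (841 and 350) and 644 of the 34572 peaks of SMARCAL1 knockout clone 2 (507 and 137). In all, 4057 of 138915 listed peaks were members. Peaks on unplaced and alternative contigs of these chromosomes, 195 in control, were not counted as members.

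Accessible DNA was measured by ATAC-seq, in which a transposase cuts and tags open chromatin. The 3 groups, all of the same line grown in serum-supplemented DMEM, were control cells (3 libraries, batch 1), SMARCAL1 knockout clone 1 (3 libraries, batch 1) and SMARCAL1 knockout clone 2 (2 libraries, batch 2). Each knockout group is a single clone, and clone 2 and its batch cannot be told apart. The labels call the libraries biological replicates, but 1 merged list per group was deposited, so the differences below could not be checked against the spread between libraries and carry no p-value. An absent peak is a peak not listed, which does not show closed chromatin. SMARCAL1, on chromosome 2, had a gene-start peak in all 3 lists, scored 16.7, 13.1 and 13.5 in the order above, which does not check the knockout. The 6 libraries of the mouse melanoma line B16F10 were not analysed here.

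Active gene starts are usually depleted of nucleosomes and give the most regular ATAC-seq peaks, while peaks inside genes and between them often mark enhancers. Gene-dense chromosomes such as 17, 19 and 22 are known to lie toward the interior of the nucleus, to replicate early and to be rich in G and C. SMARCAL1 is a DNA translocase that rewinds and reverses stalled forks during DNA replication. By its title, the study asks how it acts on innate immunity and on the checkpoint ligand PD-L1. Chromosome 17 carries BRCA1, NF1 and ERBB2 and the HOXB, keratin and CC chemokine clusters, and chromosome 22 carries EP300, CHEK2, XBP1 and the APOBEC3 cluster.

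The gene starts that best show the patterns described below are given first by their DNA, as the 250 bases before the annotated start site from RefSeq (GRCh38.p14, the coordinates of hg38), read 5′ to 3′ on the strand of the gene. They are, for each chromosome, the first gene with a known start site among the strongest of each class. The classes are kept in all 3 lists (ELAC2, ZBED4), control and clone 1 (ATP5MC1, DESI1), control and clone 2 (PHB1, MYH9) and control alone (CD68, ATP6V1E1). BRCA1 was added for a peak near its RefSeq start, inside NBR1, that both clones had and control lacked. The clone 2 peak there lies outside the printed bases. Capitals mark matches on either strand to 5 short motifs: the GC box GGGCGG, the CCAAT box CCAAT, the cAMP response element TGACGTCA, the AP-1 site TGANTCA and the ETS core CCGGAAGT.
ELAC2 (chr17:13018028-13018277, minus strand): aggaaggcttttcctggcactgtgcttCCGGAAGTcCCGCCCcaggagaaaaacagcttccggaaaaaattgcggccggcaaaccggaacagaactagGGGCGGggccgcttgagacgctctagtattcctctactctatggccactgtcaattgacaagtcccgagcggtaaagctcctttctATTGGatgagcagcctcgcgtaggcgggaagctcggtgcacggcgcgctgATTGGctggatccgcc
ZBED4 (chr22:49853594-49853843, plus strand): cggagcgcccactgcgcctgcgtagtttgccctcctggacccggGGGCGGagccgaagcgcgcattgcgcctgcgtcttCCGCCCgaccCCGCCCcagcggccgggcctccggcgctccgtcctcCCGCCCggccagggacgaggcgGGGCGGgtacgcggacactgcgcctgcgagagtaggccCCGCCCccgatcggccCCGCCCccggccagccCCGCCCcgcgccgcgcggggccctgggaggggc
ATP5MC1 (chr17:48892537-48892786, plus strand): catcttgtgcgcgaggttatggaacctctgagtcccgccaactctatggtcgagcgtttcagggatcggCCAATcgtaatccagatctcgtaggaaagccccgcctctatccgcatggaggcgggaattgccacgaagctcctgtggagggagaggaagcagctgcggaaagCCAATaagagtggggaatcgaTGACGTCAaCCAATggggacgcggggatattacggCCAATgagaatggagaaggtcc
DESI1 (chr22:41621044-41621293, minus strand): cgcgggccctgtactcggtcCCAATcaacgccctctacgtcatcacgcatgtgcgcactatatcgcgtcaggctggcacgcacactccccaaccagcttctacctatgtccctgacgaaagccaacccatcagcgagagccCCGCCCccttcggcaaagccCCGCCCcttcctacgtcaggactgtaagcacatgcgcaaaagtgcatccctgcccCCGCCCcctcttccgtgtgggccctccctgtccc
PHB1 (chr17:49414883-49415132, minus strand): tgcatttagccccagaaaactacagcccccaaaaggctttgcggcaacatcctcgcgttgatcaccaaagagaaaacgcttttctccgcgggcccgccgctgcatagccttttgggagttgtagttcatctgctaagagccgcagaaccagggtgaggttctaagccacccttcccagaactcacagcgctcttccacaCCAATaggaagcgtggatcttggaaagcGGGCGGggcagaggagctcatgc
MYH9 (chr22:36387968-36388217, minus strand): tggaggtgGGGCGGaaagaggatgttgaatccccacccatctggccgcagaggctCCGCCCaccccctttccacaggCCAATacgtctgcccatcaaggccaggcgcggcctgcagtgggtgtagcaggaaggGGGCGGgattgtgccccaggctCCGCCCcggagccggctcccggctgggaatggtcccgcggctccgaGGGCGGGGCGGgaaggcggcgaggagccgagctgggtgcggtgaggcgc
CD68 (chr17:7579388-7579637, plus strand): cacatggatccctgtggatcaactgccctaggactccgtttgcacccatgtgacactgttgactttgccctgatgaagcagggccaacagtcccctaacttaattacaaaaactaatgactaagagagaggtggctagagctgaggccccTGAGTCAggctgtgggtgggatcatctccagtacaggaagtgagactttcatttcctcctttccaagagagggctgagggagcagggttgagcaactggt
ATP6V1E1 (chr22:17628823-17629072, minus strand): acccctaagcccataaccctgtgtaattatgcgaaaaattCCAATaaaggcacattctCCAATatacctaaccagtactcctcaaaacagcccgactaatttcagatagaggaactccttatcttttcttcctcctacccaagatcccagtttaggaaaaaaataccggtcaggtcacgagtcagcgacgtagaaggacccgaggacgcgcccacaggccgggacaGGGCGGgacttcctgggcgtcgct
BRCA1 (chr17:43170328-43170577, minus strand): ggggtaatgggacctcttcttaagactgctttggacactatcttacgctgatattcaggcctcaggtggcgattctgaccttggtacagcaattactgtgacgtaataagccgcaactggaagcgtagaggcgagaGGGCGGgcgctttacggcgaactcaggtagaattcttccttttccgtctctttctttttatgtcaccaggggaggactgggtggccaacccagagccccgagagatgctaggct
The ZBED4 stretch holds 8 GC boxes in 81.6% G and C, and the MYH9 stretch holds 6. ATP5MC1, which encodes a subunit of the mitochondrial ATP synthase, has 4 CCAAT boxes and the single cAMP response element of the set. CD68, which encodes a macrophage lysosomal glycoprotein, has 51.6% G and C, 1 CpG and an AP-1 match.

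Control peaks were sparse and low in score although genes were dense. Chromosome 17 had 14.1 and chromosome 22 had 11.2 protein-coding genes per Mb between the first and last control peak, the second and the third rank of 23 chromosomes (Y left out) after chromosome 19 with 24.9. Control peaks numbered 19.2 per Mb on chromosome 17 (rank 17) and 15.5 per Mb on chromosome 22 (rank 23). Each peak carries the authors' score, the −log10 p of the peak caller, which ranks peaks within a list. The control score decile of a peak is its place among 10 equal groups of all control peaks ranked by score. The highest decile held 45 control peaks on chromosome 17 (2.81%) and 8 on chromosome 22 (1.28%), ranks 22 and 23, whereas chromosome 18 had 10.7% there.

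Gene starts held a larger share of the control peaks than on all other chromosomes pooled, but a smaller one than on chromosome 19. A gene-start window is the 1000 bp on either side of an annotated start site, or of either gene end for the 488 of 1620 protein-coding genes without a start site in the table. Such windows held 36.3% of control peaks on chromosome 17 and 32.3% on chromosome 22, against 17.4% on all other chromosomes and contigs. Chromosome 19 had 49.5% and chromosome 16 had 30.7%. The shares in the clone 2 list were 48.9% and 50.4%. Peak widths set the lists apart: the median was 444 bp (chromosome 17) and 369 bp (chromosome 22) in control, 462 and 368.5 bp in clone 1, and 171 and 162 bp in clone 2. Over all chromosomes the medians were 399, 453 and 200 bp. Read totals were not used here, and depth enters only through these list lengths, widths and scores.

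Most control peaks of both chromosomes had no counterpart in a knockout clone, and more so in clone 2. A control peak counted as found in a clone when at least 1 bp of a clone peak overlapped it, and as absent otherwise. On chromosome 17, 63.4% of control peaks (exact binomial 95% interval 60.9 to 65.7%) were absent in clone 1 and 72.9% (70.6 to 75.03%) in clone 2. On chromosome 22, 70.8% (67.0 to 74.3%) were absent in clone 1 and 82.5% (79.3 to 85.4%) in clone 2. Over all control peaks, 57.9% were absent in clone 1, 57.1% in clone 2 and 46.7% in both. On chromosomes 17 and 22, 55.9% and 65.5% were absent in both. Intervals here and below cover counting error only. With control scores limited to those recognisable as means over replicates, the clone 1 share on chromosome 22 was 42.9%.

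Since weak peaks are found less often everywhere, the number found was divided by the number expected from the share found in each control score decile over all chromosomes. In clone 2 this ratio was 0.774 (0.712 to 0.838) on chromosome 17, with 434 of 1599 control peaks found, and 0.626 (0.522 to 0.742) on chromosome 22, with 109 of 623 found. These were the lowest values of 23 chromosomes, followed by chromosome 19 (0.811) and chromosome 16 (0.847), while X had 1.21 and chromosome 18 had 1.17. In clone 1 the ratios were 1.06 (0.994 to 1.13) and 1.05 (0.919 to 1.18), so both intervals hold 1. Counting a control peak as found only when at least 50% of it was covered lowered the clone 2 ratios to 0.355 and 0.239, beside the narrow peaks of that list.

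Across the 23 chromosomes, Spearman's rho between genes per Mb and the ratio was −0.740 in clone 2 and 0.377 in clone 1. These are descriptions over chromosomes that share the same libraries and score deciles. The gene density of chromosome 19 exceeded that of chromosomes 17 and 22, but its clone 2 ratio was the higher one.

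**Figure D1:**
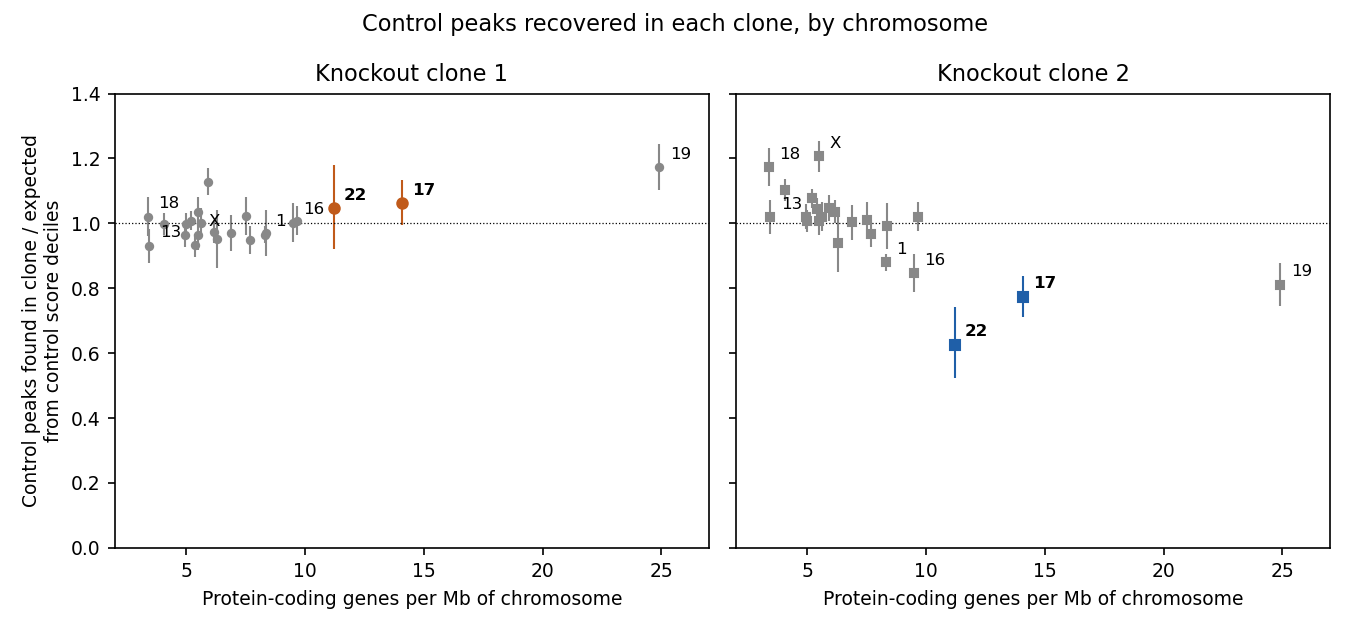
Control peaks found in each clone divided by the number expected from control score deciles (y axis) against protein-coding genes per Mb (x axis) for 23 chromosomes, with exact binomial 95% intervals that cover counting error only. In clone 2, chromosomes 22 (0.626) and 17 (0.774) are the lowest points. In clone 1 they lie at 1.05 and 1.06.

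The lower share in clone 2 ran through weak and strong peaks up to decile 9. Among the lowest 5 control score deciles of both chromosomes, 110 of 1350 control peaks (8.15%, interval 6.74 to 9.74%) were found in clone 2, against 15.1% on all other chromosomes. In deciles 6 to 8 the share was 40.8% (37.1 to 44.6%) against 55.2%. In the upper 2 deciles 151 of 181 peaks were found (83.4%, 77.2 to 88.5%), against 95.6%. These pooled shares differ in score mix, with 128 peaks in decile 9 and 53 in decile 10, against 6353 and 6428 elsewhere. Taken singly, decile 9 had 78.1% against 92.4% and decile 10 had 96.2% against 98.8%. Clone 1 differed less from the other chromosomes in each of these groups, with 16.9% against 16.3%, 54.3% against 50.6% and 91.2% against 94.0%. Its shares were 87.5% against 88.8% in decile 9 and 100% against 99.1% in decile 10. All 45 peaks of the highest decile on chromosome 17 were found in both clones. On chromosome 22 all 8 were found in clone 1 and 6 in clone 2.

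**Figure D2:**
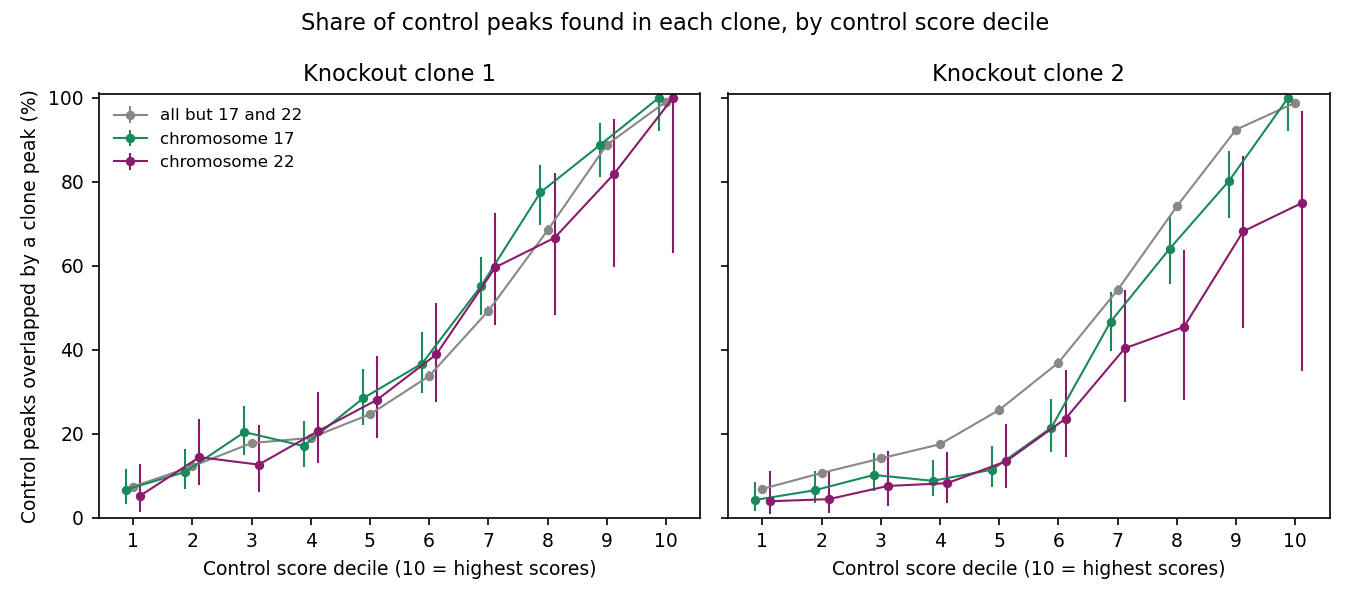
Percent of control peaks overlapped by a clone peak (y axis) by control score decile (x axis, 10 holds the highest scores) on chromosome 17, chromosome 22 and all other chromosomes and contigs, with exact binomial 95% intervals. In clone 2, both chromosomes lie below the others in deciles 1 to 9, for example 21.5% and 23.6% against 36.9% in decile 6. In clone 1 decile 6 has 36.7% and 38.9% against 33.8%.

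The 2 highest-scoring control peaks without a clone 2 counterpart lay between genes on chromosome 22. They were chr22:50759772-50760172 (control score 16.7), 7334 bp from RABL2B, and chr22:26773074-26773529 (15.7), 142405 bp from CRYBA4. Both had a counterpart in clone 1. Clone 2 lacked 30 control peaks of deciles 9 and 10, of which 15 lay in gene-start windows, 7 in gene bodies and 8 between genes. Clone 1 lacked 16, and 9 were missing from both clones.

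Peaks inside genes were found least often in clone 2. With the expectation taken from score decile and position together, the clone 2 ratio for gene-body peaks was 0.657 (0.541 to 0.786) on chromosome 17 and 0.367 (0.208 to 0.590) on chromosome 22. Gene-start peaks had 0.813 (0.728 to 0.900) and 0.763 (0.604 to 0.938). Peaks between genes had 0.790 (0.667 to 0.924) and 0.601 (0.425 to 0.814). Chromosome 19 showed the same order of gene-start and gene-body peaks in clone 2, with 0.906 and 0.571. In clone 1, the ratios over all positions became 0.95 (0.889 to 1.01) and 0.918 (0.807 to 1.04) under this expectation and so lay below 1, where the decile alone had put them above it. Among 23 chromosomes these clone 1 values ranked 18 and 23 from the highest, so chromosome 22 was lowest in clone 1 as well. For both chromosomes pooled, the clone 1 ratio under this expectation was 0.942 (0.888 to 0.997). The clone 2 ratios over all positions stayed at 0.767 and 0.619, ranks 22 and 23.

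**Figure D3:**
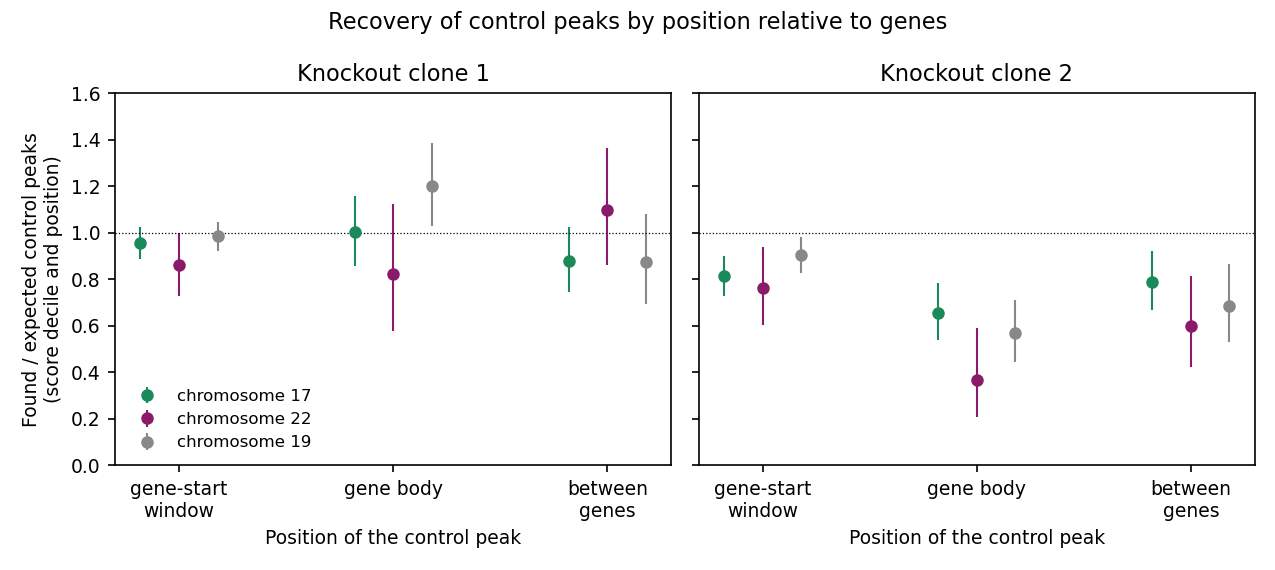
Found-to-expected ratio (y axis) of control peaks in gene-start windows, gene bodies and between genes, on chromosomes 17, 22 and 19, with the expectation from score decile and position and exact binomial 95% intervals. In clone 2, gene-body peaks have the lowest values, 0.657 on chromosome 17 and 0.367 on chromosome 22. Clone 1 values lie on both sides of 1.

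In windows of 5 Mb, counted from the short-arm end, chromosome 17 was a mosaic in clone 2 and chromosome 22 was low nearly throughout. Of 25 windows with at least 20 control peaks, 20 had a clone 2 ratio below 1, and in 13 the whole interval lay below 1. These were 12 and 8 of 17 windows on chromosome 17, and 8 and 5 of 8 on chromosome 22. In clone 1, 12 of 25 were below 1, and the interval lay above 1 in 3 and below 1 in 0.

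The lowest windows of clone 2 were the neighbours from 35 to 45 Mb of chromosome 17, around the growth-signalling gene ERBB2 and BRCA1. From 35 to 40 Mb, with 102 protein-coding genes, 7 of 74 control peaks were found (ratio 0.348, 0.143 to 0.681). From 40 to 45 Mb, with 182 genes, 9 of 106 were found (0.319, 0.149 to 0.582). Clone 1 had ratios of 1.51 (1.09 to 1.95) and 0.996 (0.691 to 1.35) there. With position added to the expectation, the clone 1 ratios were 1.32 and 0.771, and those of clone 2 were 0.346 and 0.310. Of the 80 genes in both windows with a control gene-start peak, 44 had none in either clone, 24 kept one in clone 1 alone, and 8 were in all 3 lists. Over all chromosomes, 15.5% of genes with a control gene-start peak had none in either clone and 65.3% were in all 3 lists. On chromosomes 17 and 22 together the shares were 34.1% and 33.9%.

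The 8 genes kept in all 3 lists in these 10 Mb were RFFL, MIEN1, PSMD3, EIF1, STAT3, TMUB2, ATXN7L3 and GPATCH8. EIF1, a start codon selection factor of translation, scored 7.09, 5.09 and 11.3 in the order control, clone 1, clone 2. STAT3, a transcription factor of cytokine signalling, had 8.29, 7.70 and 8.004. PSMD3, a subunit of the proteasome lid, had 8.95, 5.74 and 9.16. CDK12, JUP and RUNDC3A were among those in control and clone 2, and CDK12, a kinase of the elongating polymerase, scored 6.43 and 10.5. Control-only genes included CAVIN1, a coat protein of caveolae (8.76), BECN1, of autophagy (7.47), CDC6, which loads the replicative helicase (7.23), and the circadian receptor gene NR1D1 (6.67).

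Other parts of chromosome 17 had clone 2 ratios close to 1. The ratio was 1.03 (0.787 to 1.29) from 10 to 15 Mb, 1.09 (0.768 to 1.43) from 25 to 30 Mb, 1.09 (0.810 to 1.37) and 1.01 (0.781 to 1.25) in the windows from 50 to 60 Mb, and 0.970 (0.716 to 1.24) and 1.11 (0.820 to 1.41) from 65 to 75 Mb. The window from 10 to 15 Mb has 23 genes, and all 11 with a control gene-start peak had one in both clones. It holds the strongest gene-start peaks of either chromosome: ELAC2, which encodes the ribonuclease Z that trims tRNA 3′ ends (31.8, 17.3 and 31.1 in control, clone 1 and clone 2), ZNF18, a zinc finger gene (28.8, 15.6 and 27.2), and the divergent pair SCO1 and ADPRM, which shares 1 peak (24.8, 14.2 and 20.4). MAP2K4, a stress kinase, had 18.9, 10.9 and 20.15. The control scores of these 11 genes ran from 7.10 to 31.8 with a median of 12.6, against 5.05 to 10.1 with a median of 6.34 for the 55 genes from 40 to 45 Mb.

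In the windows from 50 to 60 Mb, 37 of 63 genes with a control gene-start peak were in all 3 lists, against the 65.3% over all chromosomes given above. MMD had scores of 21.9, 9.43 and 22.01, and PCTP, a phosphatidylcholine transfer protein, had 20.2, 11.3 and 24.0. COX11 and STXBP4 share a peak with 18.1, 8.27 and 14.8, where COX11 is an assembly factor of cytochrome c oxidase.

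On chromosome 22 the clone 2 ratio was between 0.426 and 0.568 in 6 of 8 windows. The others were 15 to 20 Mb (0.965, 0.668 to 1.31) and 30 to 35 Mb (0.922, 0.566 to 1.36). The window from 15 to 20 Mb also had the highest clone 1 ratio of either chromosome, 1.52 (1.17 to 1.87), and held 79 clone 1 peaks, of which 38 (48.1%) were absent in control. Of its 20 genes with a control gene-start peak, 10 were in all 3 lists. IL17RA, the receptor of interleukin 17A, had 10.8, 6.06 and 16.3. CDC45, a subunit of the replicative helicase, shares a peak with UFD1 and had 7.23, 6.35 and 11.8. HIRA, a histone chaperone, shares a peak with MRPL40 and had 6.65, 5.06 and 6.70. From 20 to 30 Mb, where the ratios were 0.434 and 0.426, 13 of 57 genes were in all 3 lists, among them CRKL (9.62, 8.60 and 8.21), an adaptor of growth factor signalling.

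**Figure D4:**
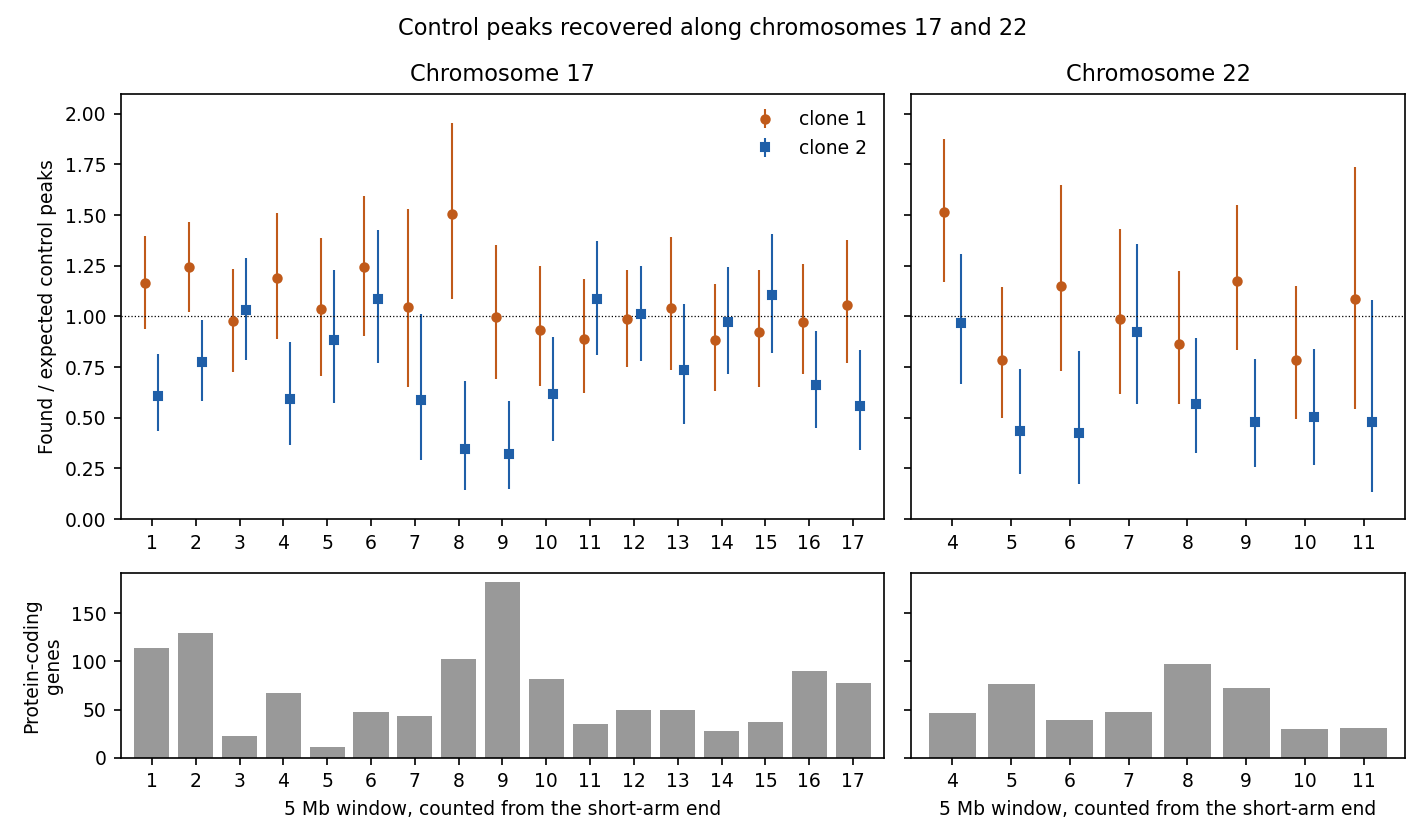
Found-to-expected ratio of control peaks (upper panels, y axis) in 5 Mb windows numbered from the short-arm end (x axis) with exact binomial 95% intervals, and the number of protein-coding genes in each window (lower panels). Windows 8 and 9 of chromosome 17 have the lowest clone 2 ratios, 0.348 and 0.319, and 102 and 182 genes. On chromosome 22 all 8 clone 2 points lie below 1.

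Windows with many genes had lower clone 2 ratios on chromosome 17. Spearman's rho between the number of genes and the ratio over its 17 windows was −0.657 in clone 2 and 0.479 in clone 1. With position added to the expectation these became −0.665 and −0.0123. Over the 8 windows of chromosome 22 they were 0.119 and −0.0238, and over the 560 windows of the other chromosomes −0.553 and 0.172. The windows share libraries and score deciles, and these are descriptions. At a limit of 70 genes, chosen after the values were seen, the pooled clone 2 ratio of chromosome 17 was 0.596 in 7 windows with more genes and 0.929 in 10 with fewer. On chromosome 22 it was 0.495 in 3 and 0.706 in 5. The medians of the single windows were 0.608 and 0.991 on chromosome 17, but close to each other on chromosome 22, at 0.479 and 0.506. A clone 2 ratio below 0.5 occurred in 6 of 25 windows here (24.0%) and in 12 of 560 elsewhere (2.14%).

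By gene, 615 of 1169 protein-coding genes on chromosome 17 (52.6%) and 211 of 451 on chromosome 22 (46.8%) had a control gene-start peak, against 60.2% elsewhere. Of these genes, 37.7% on chromosome 17 (interval 33.9 to 41.7%) and 49.3% on chromosome 22 (42.4 to 56.2%) had none in clone 1. In clone 2 the shares were 57.2% (53.2 to 61.2%) and 66.4% (59.5 to 72.7%). Over all genes with a control gene-start peak, 20.8% had none in clone 1, 29.3% none in clone 2 and 15.5% none in either. On these chromosomes 31.5% and 41.7% had none in either. The 826 genes share 714 control peaks, so neighbours with a shared peak are counted together.

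These gene starts also had lower scores. The median control gene-start score was 6.94 on chromosome 17 and 6.34 on chromosome 22, against 9.51 elsewhere. At equal score decile the ratio of genes found to genes expected was 0.948 and 0.870 in clone 1, and 0.805 and 0.769 in clone 2. Chromosome 19 had 1.00 and 0.908. Among genes with a control score above the list median, 25.6% of both chromosomes together lacked the peak in clone 1, 43.3% in clone 2 and 19.2% in both, against 40.7%, 59.6% and 34.1% without that limit.

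**Figure D5:**
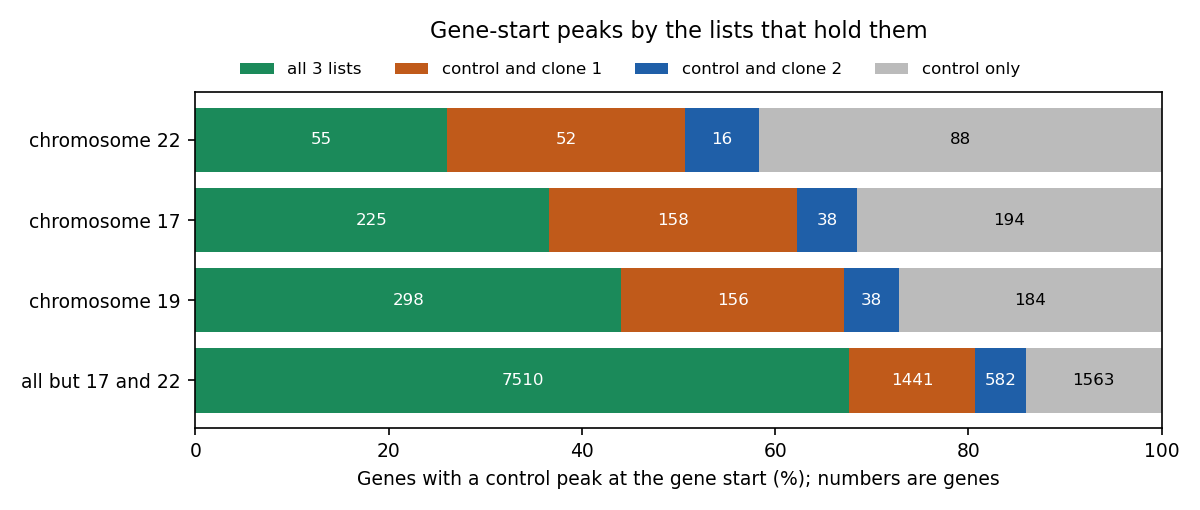
Genes with a control gene-start peak (x axis, percent; numbers are genes) by the other lists that hold a peak at the same gene start, for chromosomes 22, 17 and 19 and for all chromosomes but 17 and 22. All 3 lists hold 55 of 211 genes on chromosome 22 and 225 of 615 on chromosome 17. Control alone holds 88 and 194.

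Genes whose gene-start peak was in control alone had control scores of at most 10.2. CD68 led with 10.2 (chr17:7579147-7579713), followed by ATP6V1E1, a subunit of the proton pump of lysosomes (10.1, chr22:17628362-17629153). The divergent genes ST13, a cochaperone, and XPNPEP3, a mitochondrial peptidase, share a peak with 9.75. ALYREF, an mRNA export adaptor, and ANAPC11, a subunit of the anaphase-promoting complex, share another with 9.63. CDPF1 (9.35) and MILR1 (8.98) complete the 8 chosen. MILR1 has no start site in the table, so its peak may not lie at its start. That peak also lies at the start of POLG2, a subunit of the mitochondrial polymerase.

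Stronger gene starts were missing in clone 2 alone. ATP5MC1 had 12.7 in control and 6.79 in clone 1. NF1, a GTPase-activating protein of RAS and a tumour suppressor, had 12.1 in control (chr17:31094481-31095135) and 5.73 in clone 1. DESI1 and XRCC6, which encodes the Ku70 subunit of the end-joining machinery, share a peak with 11.3 and 7.58. TVP23B had 11.2 and 5.71, ATPAF2 and GID4 share a peak with 10.8 and 7.01, and MRPL38, of the mitochondrial ribosome, had 10.6 and 5.91.

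Fewer genes had the opposite pattern, with 54 of 826 in control and clone 2 against 210 in control and clone 1. The same direction held over all chromosomes, with 636 against 1651 of 11922 genes with a control gene-start peak. PHB1, a mitochondrial scaffold protein, had 12.4 in control and 8.70 in clone 2. LUC7L3, a splicing factor, had 11.2 and 8.31, and MYH9, nonmuscle myosin heavy chain, 9.95 and 8.34. GRB2, an adaptor between growth factor receptors and RAS, had 9.55 and 11.8. CEP131, L3MBTL2, EIF3D and NHERF1 followed, with control scores from 8.64 to 9.28.

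Of the 794 genes without a control gene-start peak, 2 had one in each clone, against 0.542% of such genes over all chromosomes. The 2 genes, BRCA1, of homologous recombination, and NBR1, an autophagy receptor, are divergent and share the same peaks, chr17:43170449-43171448 in clone 1 (6.15) and chr17:43171045-43171217 in clone 2 (6.33), both inside NBR1. With gene starts taken as 500 bp, 1 clone remained. RefSeq extends BRCA1 to 43170327, and only peaks near that end counted as its gene-start peaks. The pattern given for BRCA1 therefore holds for this RefSeq end alone. It does not show that control lacked a peak at other starts of the gene, which were not examined. Control had a peak at chr17:43125201-43125834 (5.10), inside the BRCA1 span and over the first base of the neighbouring non-coding gene NBR2 (43125557). Clone 2 had one there as well (chr17:43125503-43125629, 8.97), and clone 1 had none. A further 43 of the 794 genes had a gene-start peak in clone 1 alone and 6 in clone 2 alone. Over all chromosomes these were 374 and 64 of 8115 such genes. The 43 included HROB (8.22), and PGAP3 and ERBB2, which share chr17:39687681-39688241 (5.32).

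On chromosome 22, the strongest gene starts of all 3 lists scored lower than those of chromosome 17 in control. ZBED4 had 16.7 in control, 10.6 in clone 1 and 11.3 in clone 2. RBFOX2, a splicing factor, had 15.4, 7.55 and 11.2, and RABL2B, a small GTPase of cilia, had 13.02, 9.10 and 10.8. TOM1, of endosomal sorting, had 11.8, 7.60 and 16.2. IFT27, of intraflagellar transport, had 11.6, 8.16 and 9.74. KCNJ2, a potassium channel gene of chromosome 17, had 23.2, 7.84 and 19.99. Scores are ranks within a list and were not compared between lists.

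Gene groups are described by counts, to be read beside the 40.7% of genes with a control peak on both chromosomes that had none in clone 1 and the 59.6% with none in clone 2. Differences between groups were not tested, and the lists share some genes. A gene counts as in a list when a peak lies in its gene-start window, so peaks of different lists at 1 gene need not overlap. For genes without a start site in the table, either gene end counted, so such a peak may not lie at the start. Of 33 DNA replication, fork and repair genes with a control peak, 11 had none in clone 1 and 19 none in clone 2. RPA1, of the single-strand binding complex, was in all 3 lists (10.6, 6.77 and 9.38), as were BRIP1, a helicase (8.81, 6.07 and 9.38), and RAD51C (5.29, 5.11 and 8.06). TOP2A, topoisomerase II alpha, was in control and clone 1 (9.55 and 5.72), as was RAD51D (6.41 and 5.05). CHEK2 (6.92 and 9.60) and MCM5 (5.29 and 9.90) were in control and clone 2. CDC6, LIG3 and EME1 were in control alone. The list also holds genes of other known roles, such as TOM1 and the Polycomb genes CBX2, CBX7 and CBX8.

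Breast cancer and growth signalling genes had the lowest share absent in clone 2 among the groups with at least 19 control peaks, a difference that was not tested. Of 27 with a control peak, 8 had none in clone 1 and 8 none in clone 2, and 14 were in all 3 lists. CRK had 13.5, 7.75 and 12.7, EP300, a histone acetyltransferase, 9.70, 6.54 and 8.496, and SOX9 7.59, 6.11 and 10.1. XBP1, the transcription factor of the unfolded protein response, had 6.98 in control, 11.5 in clone 1 and no peak in clone 2. The median control score of the group was 8.29, against 6.70 for all genes of both chromosomes with a control peak. GRB7, STARD3, NF2 and SOX10 had no gene-start peak in any list.

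Of 29 chromatin regulators with a control peak, 8 had none in clone 1 and 19 none in clone 2, and the median control score was 6.52. SUZ12, of the Polycomb repressive complex (9.88, 5.67 and 9.03), and KAT7, an acetyltransferase (7.50, 7.99 and 9.16), were in all 3 lists. NCOR1 (7.45 and 5.78), BPTF (7.20 and 5.61) and SMARCD2 (6.68 and 6.94) were in control and clone 1. KDM6B (6.52), HDAC5 (6.46) and SMARCB1 (5.50) were in control alone.

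Among 24 genes of a transcription factor list with a control peak, 5 had none in clone 1 and 11 none in clone 2. HLF (14.7, 5.64 and 17.6) and SREBF2 (9.01, 7.22 and 11.3), regulators of circadian output and sterol synthesis, were in all 3 lists. ATF4, of the integrated stress response, was in control and clone 1 (7.35 and 5.07). PER1, NR1D1 and HIC1 were in control alone. The list also holds PITPNA, a phosphatidylinositol transfer protein. Among 31 genes with a control peak in a list of ribosome, translation, splicing and proteasome genes, 9 had none in clone 1 and 14 none in clone 2. EIF5A (14.6, 12.5 and 8.60) and PRPF8 (13.4, 5.67 and 7.89) were kept, and RPL3 (5.17 and 5.56) and POLR2A (7.45 and 6.35) were in control and clone 1. The list also holds genes of other roles, such as GRB2, the actin gene ACTG1 and the kinase gene TAOK1.

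Innate immune and interferon genes, the group nearest to the question of the series, had a control gene-start peak at 19 of 34. Of these 19, 11 had none in clone 1 and 12 none in clone 2, and 10 were in control alone. The 10 were TNFSF13, TRIM47, TAB1, LGALS3BP, DHX58, GRN, MAP3K14, MIF, SARM1 and SOCS7, with control scores from 5.03 to 6.53. The median control score of the 19 was 6.13. IL17RA, NLK (12.9, 8.58 and 11.7), STAT3, SOCS3 (6.59, 5.02 and 7.97), and TRIM25, a ubiquitin ligase of RNA sensing (6.39, 6.37 and 10.96), were in all 3 lists. TNFSF12, which has no start site in the table, also counts there, but its control peak is the one of TNFSF13 (6.53) and has no counterpart in either clone. The clone peaks lie at its other end. All 7 APOBEC3 genes, cytidine deaminases that restrict retroviruses, lacked a control gene-start peak, and APOBEC3A (5.22) and APOBEC3B (5.26) had one in clone 1 alone. Neither APOBEC3A nor APOBEC3B has a start site in the table, so these clone 1 peaks may not lie at their starts. Of 15 chemokine genes, CXCL16, which lies outside the CC chemokine cluster, had a control gene-start peak (5.37) and CCL1 one in clone 1 (5.21).

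Tissue-restricted clusters were mostly without gene-start peaks. Of 27 type I keratin genes, KRT17 had a control gene-start peak (5.51) and KRT16 one in clone 1 (6.12). The luminal and basal breast keratin genes KRT19 and KRT14 had none in any list. HOXB9 (5.57, control) and HOXB4 (5.46, clone 1) were the HOXB genes with a gene-start peak, of 10. KRT17, KRT16, HOXB9 and HOXB4 have no start site in the table, so their peaks may lie at the other gene end. Of 30 marker genes of blood, endothelial, muscle and neural cells, 25 had no gene-start peak in any list, PECAM1, MPO, GFAP and CD79B among them. Some of these, such as PECAM1, had peaks elsewhere in or near the gene. The other 5, CD68, SYNGR1, MAPT, SHANK3 and ITGB3, were in control alone, with control scores from 5.22 to 10.2. Their part in the shares above was not tested.

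Genes chosen for many control peaks without a clone 2 counterpart are given by their counts, to be read beside the 63.4% and 72.9% of all control peaks of chromosome 17 that were absent in clone 1 and clone 2. RAP1GAP2, which encodes a GTPase-activating protein of Rap1, had 24 control peaks within its span and 10 kb on each side, of which 19 were absent in clone 1 and 20 in clone 2. SLC39A11, a zinc transporter gene, had 13, with 11 and 10 absent. MSI2, of RNA binding, had 12, with 9 absent in each clone. ASIC2, an ion channel gene, had 9, with 6 and 8 absent. RPTOR, which encodes a subunit of the mTORC1 kinase complex, had 10, with 5 and 9 absent. Of its 10 clone 1 peaks, 5 were absent in control, the most of any gene here. DNAH2, a dynein gene, had 4 of 5 such peaks, SP6 4 of 4, ADA2 3 of 4 and ARHGAP8 3 of 3. These genes were chosen for these counts.

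In the other direction, clone 1 peaks of chromosome 22 were more often absent in control. The share was 48.6% (170 of 350, interval 43.2 to 53.9%) on chromosome 22 and 30.0% (252 of 841, 26.9 to 33.2%) on chromosome 17, against 30.7% of all clone 1 peaks. For clone 2 it was 10.2% (14 of 137, 5.70 to 16.6%) and 7.10% (36 of 507, 5.02 to 9.69%), against 11.1% of all clone 2 peaks. The clone 1 peaks absent in control were weak, with a median score of 5.41 on chromosome 22 against 5.94 for the others. The highest scored 9.38 (chr17:4721291-4721562, in ARRB2, an adaptor of receptor desensitisation). Clone 2 shared 7 of these 422 clone 1 peaks, against 589 of all 12143 clone 1 peaks absent in control. With lists cut to equal length, the clone 2 shares were 28.5% and 20.7%.

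Median base composition of the promoters was close for found and absent gene starts when all control scores were taken. Over 300 bases (250 before and 50 after the start), the 1132 promoters in the table had a median of 64.3% G and C, and the 642 with a control gene-start peak had 67.7%. Among the latter, the median was 67.7% for the 283 with a clone 2 peak and 67.3% for the 359 without (range 41.3 to 86.0% and 35.3 to 88.0%). In 3 groups of promoters from low to high G and C, 42.4%, 44.8% and 44.9% had a clone 2 peak, with overlapping intervals. CpG counts had medians of 28 with and 29 without a clone 2 peak. For clone 1 the median G and C was 67.7% with and without a peak. In the same 3 groups 59.0%, 68.2% and 58.9% had a clone 1 peak, also with overlapping intervals. Above the median control score, a limit chosen after seeing the data, the median was higher with a peak by 3.33 percentage points in clone 1 and 0.667 in clone 2.

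Motif shares of promoters with and without a clone 2 peak differed most, in percentage points, for CCAAT. The motif was present in 46.6% of promoters with a clone 2 peak and 33.1% of those without, against 36.4% of all 15842 promoters in the table. TGACGTCA was in 5.30% and 2.23% (2.59% of all) and TGANTCA in 2.47% and 6.69% (5.75% of all). GGGCGG was in 78.4% and 76.0% (58.5% of all) and CCGGAAGT in 10.6% and 11.4% (6.19% of all). Over promoters of all chromosomes with a control peak, those with and without a clone 2 peak had CCAAT in 40.1% and 31.2%, TGACGTCA in 3.62% and 3.12%, and TGANTCA in 3.70% and 4.94%. For clone 1 on chromosomes 17 and 22, CCAAT was in 40.1% of promoters with the peak and 37.4% of those without, TGACGTCA in 5.26% and 0.823%, and TGANTCA in 3.26% and 7.41%. Promoters with a clone 2 peak also had higher control scores, with a median of 8.53 against 6.18. These are letter matches on either strand, counted without a test.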

How the data were processed

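Per the labels, ATAC-seq was made from 8 MDA-MB-436 libraries. HISAT2, MACS2 and ChIPseeker were used with hg38, per the submitters' processing notes, which give no version. The deposited lists, 1 per group and merged over replicates by the authors, give the peak position and a score, read from its values as −log10 p; no score was below 5. Coordinates are printed counted from 1.

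Overlap, score deciles (10 strata over all control peaks), 5 Mb windows and exact binomial (Clopper-Pearson) 95% intervals were computed with Python 3.11.15, numpy 2.4.6, pandas 2.3.3 and scipy 1.17.1. The overlap counts matched those of bedtools for the control and clone 2 lists, and the ratio was tested on simulated data. Genes, start sites and promoters are RefSeq GRCh38.p14; 1132 of 1620 genes matched a start site, and 2 gene ends served for the rest. The precision is limited by the number of peaks. Without read totals the depth per sample is unknown.

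The members and lists were chosen with earlier results of these data known. Named genes are, by rule, the 8 highest by control score in each class of lists, the 5 strongest of each chromosome, the 5 genes with most control peaks absent in clone 2 or clone 1 peaks absent in control, and members of 11 gene lists. The rule was written for gene ends, and known start sites were used in their place, with gene ends for every gene as an alternative. Genes described by window and part of the list examples were chosen after their values were seen. Some genes are not reported here.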

Additional observations from a re-analysis of the deposited data

Results flagged for a closer look

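On both chromosomes the 2 knockout clones lay on opposite sides of 1 in the ratio of control peaks found to expected. On chromosome 17 the ratio was 1.06 in clone 1 and 0.774 in clone 2, and on chromosome 22 it was 1.05 and 0.626. Both clone 1 intervals hold 1, and with position added to the expectation the clone 1 ratios were 0.95 and 0.918. In 2 windows of chromosome 17 the intervals of the clones lay wholly on opposite sides of 1. From 5 to 10 Mb the ratio was 1.24 in clone 1 and 0.773 in clone 2, and from 35 to 40 Mb it was 1.51 and 0.348. With position added to the expectation the ratios were 1.08 and 0.769 from 5 to 10 Mb, and 1.32 and 0.346 from 35 to 40 Mb. Intervals were not computed for these window values. The difference between the clones was not tested, since each has 1 merged list, and clone and batch cannot be told apart.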

How the results depend on the processing

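In clone 2 the ratio of control peaks found to expected stayed below 1 on both chromosomes under all 9 alternatives run. With at least 50% of the control peak covered it was 0.355 on chromosome 17 and 0.239 on chromosome 22. With peaks above the median score of each list it was 0.528 on chromosome 17, and with control scores that are means it was 0.764 on chromosome 22. In clone 1 the ratio was below 1 on chromosomes 17 and 22 with strata of score and width (0.948 and 0.910) and of score and gene-start position (0.948 and 0.917). It was also below 1, but inside the interval of the reported value, on chromosome 17 at 50% coverage (0.994) and on chromosome 22 above the median scores (0.933). The share of control peaks absent in clone 1 was 70.2% and 75.6% at 50% coverage, 44.5% and 51.5% with lists of equal length, and 43.0% and 42.9% with means. In clone 2 it was 96.5% and 98.1%, 50.7% and 62.6%, and 56.8% and 61.6%, and 82.5% on chromosome 17 above the median scores. With lists of equal length, chosen after seeing the data, the share of peaks absent in control was 42.0% and 60.4% for clone 1 and 20.7% and 28.5% for clone 2. Of genes with a control gene-start peak, the share with none was 25.6% in clone 1, 43.3% in clone 2 and 19.2% in both for control scores above the list median, and 55.9% in clone 2 among genes with a start site (also chosen after seeing the data). Of 84 alternative values, 29 left the interval of the reported value, all given here, and the cause was not tested. Of 45 named genes, BRCA1 and NBR1 changed, with 500 bp windows. Primary chromosomes alone, gene ends for every gene, and the score limits for clone peaks and promoters were also chosen after seeing the data. Leaving out replicates was not run, since the lists are merged. No paired analysis was possible because each group has 1 merged list. The number of peaks limits windows and small gene groups.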

Other observations

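The strongest peak of chromosome 22 in every list lay between genes, at chr22:11974067-11974537 in control. It scored 43.4 in control, 29.4 in clone 1 and 50.2 in clone 2, and the nearest protein-coding gene in the table, OR11H1, is 3553655 bp away. Peaks with midpoints before 17 Mb of chromosome 22 were 51 in control (8.19% of the chromosome), 47 in clone 1 (13.4%) and 24 in clone 2 (17.5%). They include 2 on the side of POTEH with control scores of 13.8 (chr22:15784538-15785698) and 13.5 (chr22:15777582-15777836), both found in the clones.

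The strongest control peak inside a gene on chromosome 17 lay in NXN, which encodes the redox protein nucleoredoxin (chr17:952475-953030, 27.9 in control and 20.3 in clone 1), and it was found in clone 2. Another peak far from genes, chr17:71071827-71072235, scored 22.4 in control and 25.2 in clone 2, at 891783 bp from KCNJ2 in control.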
